A study of Bos taurus with 15 samples.

Results

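Of the 13896 genes in the deposited tables, 10 that move glycerol across membranes or make glycerol 3-phosphate were followed in subcutaneous adipose tissue of the dewlap of primiparous Prim Holstein dairy cows. They were taken by name: the channels AQP1, AQP3, AQP7 and AQP9, glycerol kinase GK, the glycerol 3-phosphate dehydrogenases GPD1, GPD1L and GPD2, and the phosphoenolpyruvate carboxykinases PCK1 and PCK2. All 10 names were found in all 6 comparison tables. The 15 RNA-Seq libraries formed 5 groups of 3. One group was sampled 4 weeks before calving (-4 wkpp, weeks peripartum), before the diets began. The 2 NEB groups (negative energy balance) were each sampled at 1 and 16 wkpp, the severe group (SNEB) on the low energy diet (LE) and the moderate group (MNEB) on the high energy diet (HE). Per the study's methods the diets started one month before calving, cows were fasted before each biopsy, and the cows with the most extreme NEB were sequenced. Per the methods each cow was biopsied at all 3 times, so libraries of different weeks can share cows, but the labels do not say which do. All comparisons of weeks are therefore unpaired, p-values measure the spread between these libraries, and diet, NEB and sampling set cannot be told apart.

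Adipocytes store fat as triacylglycerol, whose backbone is glycerol 3-phosphate. Fat cells have little glycerol kinase, so they make this backbone from glucose, or from lactate, pyruvate and amino acids by glyceroneogenesis, in which phosphoenolpyruvate carboxykinase (PEPCK) carries the key step and the cytosolic dehydrogenase GPD1 the last. When fat is broken down the glycerol leaves the cell, mainly through the aquaglyceroporin AQP7, and is taken up by the liver, mainly through AQP9. In ruminants fat is made largely from acetate, with the adipose tissue as its main site.

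The deposited values are means over 6 libraries, and the whole reads of each library were recovered from their digits. Within a group the libraries carry no sample name and are called a, b and c, from the most to the fewest exonic reads. Exonic reads on resolved genes numbered 7471760 to 12863798 per library at -4 wkpp and 10789437 to 14190778 in SNEB, against 1976355 to 7342158 in MNEB. Synthetic spike-in RNAs took 0.0791 to 0.666 reads per 100 exonic gene reads at -4 wkpp and in SNEB, and 1.19 to 10.4 in MNEB. The 5 adipocyte markers LEP, PLIN1, CIDEC, FABP4 and LPL were read in all groups. Their summed level was 62458 to 65319.9 normalized exonic reads at -4 wkpp, 65407 to 80577 in SNEB at 1 wkpp, 14027 to 48195 in MNEB at 1 wkpp, 39281 to 45915 in SNEB at 16 wkpp and 8578 to 32476 in MNEB at 16 wkpp. Of the 6 skeletal muscle markers TNNT3 made up nearly all of the sum in MNEB, with 1169.6 to 3940.4 normalized reads in MNEB at 1 wkpp and 1644 to 3783 in MNEB at 16 wkpp, against 54.1 to 338 in the 9 other libraries. The other 5 (ACTA1, MYH1, MYH2, MYH7, CKM) stayed at or below 94.6 normalized reads in every library. The study's sequencing summary lists total reads in about the same range for all groups, and a lower share of uniquely aligned reads for every MNEB library than for any other. The uniquely aligned share of MNEB, its number of gene reads, its spike-in share and its marker levels move with every contrast that has MNEB on 1 side, and their part in those contrasts was not tested. In whole tissue, fewer cells of a type and less RNA per cell cannot be told apart.

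PCK1, the cytosolic PEPCK, had the largest fold change of the 10 genes. At -4 wkpp the libraries a, b and c held 3886, 1422 and 3562 normalized exonic reads of PCK1. At 1 wkpp they held 43.8, 129 and 65.3 in SNEB, while MNEB held 86.5, 116 and 176. The lowest library before calving was thus above every library after it, by a wide margin. At 16 wkpp the PCK1 level was 55.6, 41.6 and 114 in SNEB, and MNEB held 206, 54 and 119, in the same range as at 1 wkpp.

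The fold changes of PCK1 are given as -4 wkpp over 1 wkpp. Against MNEB at 1 wkpp, PCK1 was higher at -4 wkpp by a log2 fold change of 4.62 ± 0.47 (SE), 24.6-fold, and it passed the test in both analyses (limma-voom, Benjamini-Hochberg adjusted p = 0.00019 on exons and 0.0085 on entire genes). This log2 fold change was number 33 from the top among the 10548 genes in the exon fit. Against SNEB at 1 wkpp the log2 fold change was 5.23 ± 0.52, 37.6-fold and number 18 of 10712 genes, with an adjusted p of 0.0034 on exons and 0.014 on entire genes (limma-voom). A gene is called here when both are below 0.01, so PCK1 was not called in that comparison, although no library overlapped. Both changes share the libraries at -4 wkpp, so their difference is the contrast of SNEB with MNEB at 1 wkpp, in which PCK1 had a log2 fold change of -0.60 ± 0.47 (limma-voom, adjusted p = 0.4 on exons). In MNEB at 1 wkpp the summed adipocyte markers were below those at -4 wkpp. In SNEB the sum was not, but its members differed: FABP4 (36657 to 49013 normalized reads against 17678 to 23657 at -4 wkpp) and PLIN1 (20034 to 25469.6 against 13249.5 to 17785) were above their level at -4 wkpp, and LPL (1178 to 6182 against 12654 to 24529), LEP (421 to 629 against 1007 to 1458) and CIDEC (3685 to 6283 against 6481 to 7862) below it, each without overlap. None of the 5 was called in SNEB, and their part in the PCK1 result was not tested.

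PCK2, the mitochondrial PEPCK, was also highest before calving. Its level was 1687, 2063 and 1682 normalized exonic reads at -4 wkpp. At 1 wkpp it was 212, 973 and 293 in SNEB, where library b stood apart, and 314, 159 and 118 in MNEB. At 16 wkpp the PCK2 level was 218, 479 and 1198 in SNEB, and MNEB held 494, 154 and 152. The 3 libraries at -4 wkpp lay above all 12 later ones. The log2 fold change was 3.12 ± 0.34 against MNEB at 1 wkpp (8.68-fold, adjusted p = 0.00024 on exons and 0.012 on entire genes, limma-voom), just outside the call. Against SNEB it was 2.19 ± 0.48 (4.57-fold, adjusted p = 0.062 and 0.13). With 1 library left out, the value of PCK2 against MNEB lay between 2.88 and 3.72, the highest without library a of MNEB at 1 wkpp. Against SNEB it lay between 1.75 and 2.85, the highest without library b of SNEB at 1 wkpp. Only in that last run was PCK2 called against SNEB.

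The 2 PEPCK genes differed in how far apart the weeks were. Gene length cancels when the ratio of their reads is compared between libraries: 0.434 to 1.45 reads of PCK2 were counted per read of PCK1 at -4 wkpp, and 4.49 to 7.56 in SNEB at 1 wkpp. In SNEB at 16 wkpp the ratio was 3.92 to 11.5, and in MNEB it was 0.667 to 3.63 at 1 wkpp and 1.27 to 2.86 at 16 wkpp. The ratio in SNEB thus did not overlap with that at -4 wkpp, while that in MNEB did. No test was run on these ratios.

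GPD1, the cytosolic dehydrogenase that turns dihydroxyacetone phosphate into glycerol 3-phosphate, had the smallest spread on exons relative to its mean of the 10 genes before calving. On entire genes its SD was larger, 635 around a mean of 5126. Its level was 5058, 4983 and 5259 normalized exonic reads at -4 wkpp. At 1 wkpp the GPD1 level was 757, 1340.2 and 1022 in SNEB and 925, 1240.2 and 1128 in MNEB, and at 16 wkpp 725, 703 and 1642 in SNEB and 1622, 833 and 839 in MNEB. All 12 later libraries lay below the level before calving, and the 4 later groups overlapped one another. The log2 fold change of -4 over 1 wkpp was 2.24 ± 0.20 in MNEB (4.73-fold, limma-voom adjusted p = 0.00012 on exons and 0.0051 on entire genes), which was called. In SNEB it was 2.33 ± 0.22 (5.04-fold), with an adjusted p of 0.0033 on exons and 0.014 on entire genes, which was not.

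GPD1L and GPD2 did not share this pattern. GPD1L, a close relative of GPD1, had 155 ± 35.8 normalized exonic reads at -4 wkpp (SD, n = 3), 234 ± 37.1 and 238 ± 25.1 in SNEB at 1 and 16 wkpp, and 167 ± 7.69 and 189 ± 4.85 in MNEB. It was not called in any of the 6 comparisons. Counted within a library, reads of GPD1 per read of GPD1L were 26.1 to 44 at -4 wkpp and 2.74 to 8.73 in the 12 later libraries.

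GPD2, the mitochondrial dehydrogenase that oxidises glycerol 3-phosphate, was called lower in MNEB than in SNEB at 16 wkpp and in no other comparison. At 16 wkpp its level was 1046, 1030.2 and 1000.2 normalized exonic reads in SNEB and 554, 424 and 663 in MNEB. At 1 wkpp it was 651, 809.7 and 628 in SNEB and 368, 354 and 338 in MNEB, and before calving 868, 733 and 724. SNEB lay above MNEB at both weeks with no overlap. At 16 wkpp GPD2 was higher in SNEB by a log2 fold change of 0.93 ± 0.19, 1.9-fold, and was called (limma-voom, adjusted p = 0.0081 on exons and 0.0087 on entire genes). At 1 wkpp the log2 fold change of SNEB over MNEB was 0.97 ± 0.21 (adjusted p = 0.019 and 0.093), which did not pass. Between -4 wkpp and MNEB at 1 wkpp it was 1.12 ± 0.21 (adjusted p = 0.0031 and 0.023), which did not pass either, and between -4 wkpp and SNEB at 1 wkpp 0.16 ± 0.17 (adjusted p = 0.74 and 0.72).

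Immune cell markers moved with this contrast as well. The 5 macrophage and leukocyte markers (CD68, CSF1R, CD14, PTPRC, ITGAM) summed to 6636 to 9988 normalized exonic reads in SNEB at 16 wkpp and 1856 to 2169 in MNEB at 16 wkpp. Of these 5, CSF1R (log2 fold change 1.97 ± 0.20) and PTPRC (1.57 ± 0.21) were called higher in SNEB. None of the 5 was at 0. At 1 wkpp the sums were 4585 to 9605 in SNEB and 1810.3 to 6236 in MNEB and overlapped. The adipocyte sums at 16 wkpp, given above, were also lower in MNEB, but their members differed and none was called. CIDEC and FABP4 were lower in MNEB without overlap, PLIN1 and LPL overlapped, and LEP overlapped with the other sign (8.57 to 41.6 normalized reads in SNEB and 36 to 154 in MNEB, log2 fold change -2.23 ± 0.70, adjusted p = 0.048 on exons and 0.06 on entire genes, limma-voom). The part of either in the GPD2 result was not tested.

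**Figure D1:**
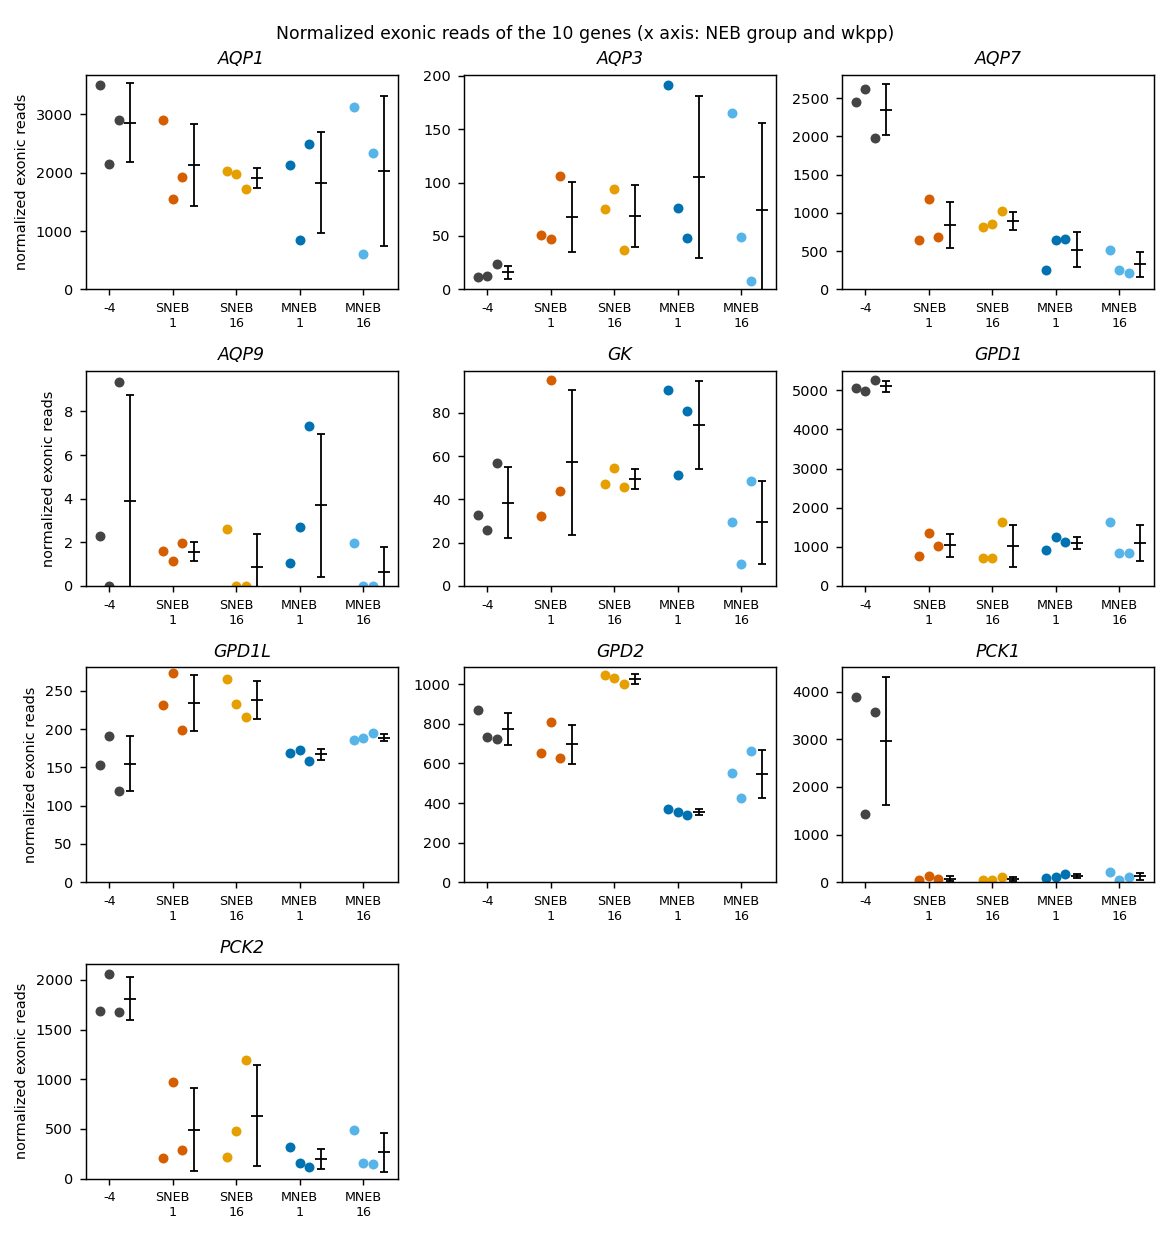
Normalized exonic reads (y axis, 1 panel and scale per gene, from 0) of the 10 genes in the 5 groups (x axis). Coloured points are single libraries a, b and c from left to right, and the black dash with its bar is the mean ± SD of 3 libraries. PCK1, PCK2, GPD1 and AQP7 are higher in the 3 libraries at -4 wkpp than in all 12 later libraries, and GPD2 is higher in SNEB than in MNEB at both weeks.

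AQP7, the main glycerol channel of adipocytes, was highest before calving. Its level was 2446, 2625 and 1983 normalized exonic reads at -4 wkpp. At 1 wkpp the AQP7 level was 650.2, 1187 and 682 in SNEB and 261, 646 and 658 in MNEB. At 16 wkpp it was 811, 849.6 and 1025 in SNEB, and MNEB held 519, 254 and 209. The libraries at -4 wkpp were all above the later ones, SNEB and MNEB overlapped at 1 wkpp, and SNEB lay above MNEB at 16 wkpp.

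AQP7 was called between -4 wkpp and MNEB at 1 wkpp, with a log2 fold change of 2.38 ± 0.34, 5.21-fold (limma-voom, adjusted p = 0.00085 on exons and 0.0092 on entire genes). Against SNEB at 1 wkpp the log2 fold change was 1.53 ± 0.25, 2.89-fold (adjusted p = 0.021 and 0.053). At 16 wkpp the log2 fold change of SNEB over MNEB was 1.42 ± 0.31, 2.67-fold, with adjusted p = 0.011 and 0.048 (limma-voom), which did not pass. Of the 5 adipocyte markers, LPL, LEP and CIDEC were also called higher at -4 wkpp than in MNEB at 1 wkpp, by log2 fold changes of 4.72, 3.83 and 2.37. PLIN1 (0.85 ± 0.24, adjusted p = 0.024 on exons) and FABP4 (0.87 ± 0.57, adjusted p = 0.28, limma-voom), the latter with overlapping groups, were not called. The part of adipocyte RNA in the AQP7 result was not tested.

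AQP3, an aquaglyceroporin best known from skin and kidney, went the other way at a low level. It had 21, 21 and 25 exonic reads in the libraries at -4 wkpp, or 12.1, 12.8 and 23.4 after normalization. At 1 wkpp the normalized AQP3 level was 50.8, 47 and 106 in SNEB and 191, 75.7 and 47.8 in MNEB, with no overlap with -4 wkpp. At 16 wkpp it was 74.8, 93.7 and 36.8 in SNEB, and MNEB held 165, 48.8 and 8.12, the last from 3 reads. The log2 fold change of -4 wkpp over MNEB at 1 wkpp was -2.93 ± 0.60 (limma-voom, adjusted p = 0.0048 on exons and 0.05 on entire genes), and over SNEB -2.04 ± 0.49 (adjusted p = 0.085 and 0.18). Without library a of MNEB at 1 wkpp, which held the most AQP3, the first of these was -2.02. AQP3 was not called in either comparison. The 5 epidermal markers KRT5, KRT14, KRT10, DSG1 and DSG3 summed to 47.7 to 90.4 normalized reads at -4 wkpp, to 2.61 to 6.49 and 2.45 to 11.4 in SNEB at 1 and 16 wkpp, and to 7.3 to 349 and 0 to 70.4 in MNEB. Their part in the AQP3 values was not tested.

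AQP1, a water channel of capillary endothelium and red cells, was not called in any of the 6 comparisons. It had 2852 ± 678 normalized exonic reads at -4 wkpp (SD, n = 3), 2129 ± 694 and 1905 ± 169 in SNEB at 1 and 16 wkpp, and 1824 ± 864 and 2019.8 ± 1283 in MNEB. All neighbours in the order of the 5 group means overlapped, while the libraries at -4 wkpp (2150.5 to 3504) lay above those of SNEB at 16 wkpp (1712 to 2029), a pair that was not compared. The largest log2 fold change was 0.77 (-4 wkpp over MNEB at 1 wkpp, 95% interval -0.06 to 1.61, adjusted p = 0.15 on exons in limma-voom). The lowest MNEB library had 848 normalized reads of AQP1 at 1 wkpp and 612 at 16 wkpp. The endothelial markers, 6 genes with PECAM1 and VWF among them, summed to 17831 to 22439.7 normalized reads at -4 wkpp, 28416 to 33379.6 and 20973 to 24032 in SNEB at 1 and 16 wkpp, and 29456 to 56148 and 24481 to 33826 in MNEB. Erythrocyte markers, 5 genes with HBB among them, summed to at most 353 in any library.

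AQP9, the glycerol channel of liver, was barely read. All 15 libraries together held 33 exonic reads of AQP9, between 0 and 10 per library, so it failed the filter of 10 reads in 3 libraries in every comparison on exons. A library with 0 reads allows up to 3. On the entire gene 446 reads were counted, with 66 and 71 of them in libraries c and b of MNEB at 1 wkpp, 70 in library a of SNEB at 16 wkpp and 127 in library c at -4 wkpp. No AQP9 test in both analyses was possible.

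GK, the kinase that makes glycerol 3-phosphate directly from glycerol, had 4 to 170 exonic reads per library. On exons its normalized level was 38.5 ± 16.4 at -4 wkpp (SD, n = 3), 57.1 ± 33.4 and 49.2 ± 4.64 in SNEB at 1 and 16 wkpp, and 74.3 ± 20.5 and 29.5 ± 19.2 in MNEB at 1 and 16 wkpp. On the entire gene the MNEB libraries at 1 wkpp held 611, 532 and 528 normalized reads and those at 16 wkpp 231, 273 and 253. The 2 weeks of MNEB did not overlap in either analysis, with a log2 fold change of 1 over 16 wkpp of 1.52 ± 0.51 on exons and 1.17 ± 0.19 on entire genes. Neither passed (limma-voom, adjusted p = 0.28 and 0.21). In SNEB the corresponding log2 fold change on exons was 0.05 ± 0.41.

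The 10 genes differed in how many of their reads lay on exons. Over all libraries, 96.4% of the reads on PCK1, 94.9% on PCK2, 93.1% on GPD1, 92.9% on AQP1 and 90.1% on AQP3 were exonic, against 60.4% for AQP7, 41.7% for GPD1L, 28.6% for GPD2, 13.8% for GK and 7.4% for AQP9. Total RNA without poly(A) selection was sequenced, so reads on introns of unspliced RNA are counted in the entire gene. For GPD2 the share was 20.5 to 31.8% at -4 wkpp, 24.5 to 31.1% in SNEB, 21.2 to 29.1% in MNEB at 1 wkpp and 32.5 to 43.5% in MNEB at 16 wkpp. For PCK1 it stayed between 88.5 and 100% in every library, with the level before and after calving far apart. GPD1L, GK and GPD2 thus rest more on intronic reads in the analysis of entire genes, and AQP9 nearly wholly. Introns are longer than exons, so the share is no measure of how much of the RNA was unspliced.

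**Figure D2:**
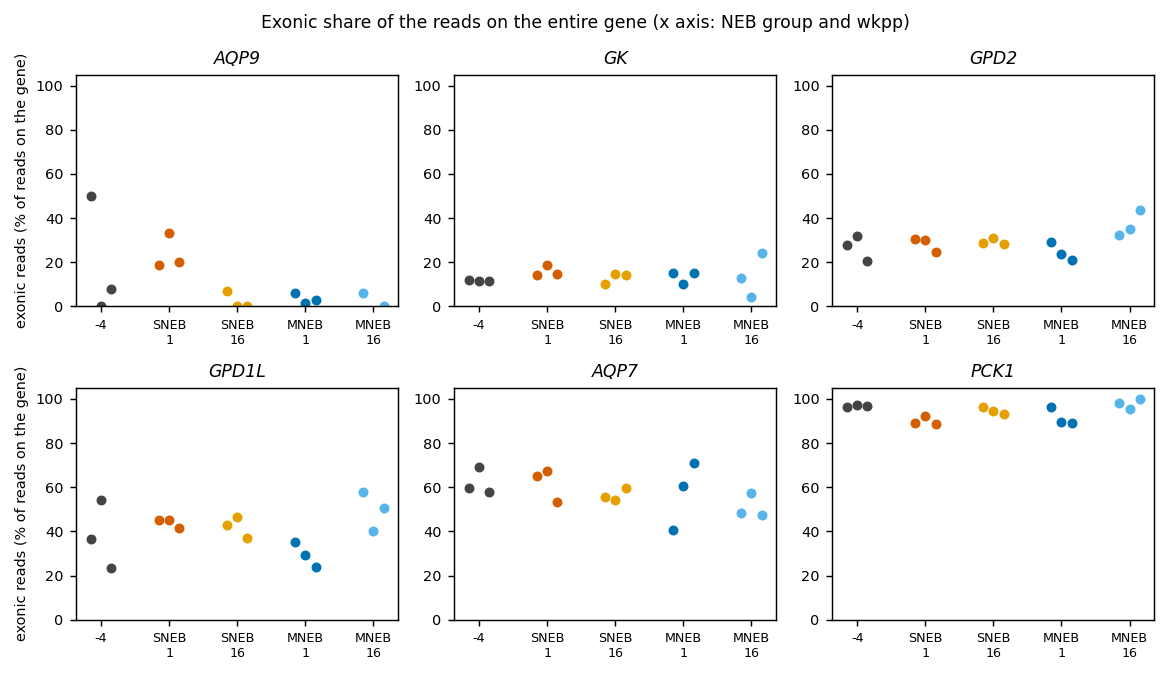
Exonic reads as a percentage of reads on the entire gene (y axis) in each library of the 5 groups (x axis), for 6 of the 10 genes. Points are single libraries. PCK1 lies between 88.5 and 100%, AQP7 between 40.8 and 70.8%, and GK between 4.12 and 24%, and AQP9 has no value in library b of MNEB at 16 wkpp, where it had 0 reads.

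Of the 10 genes, 9 could be tested in both analyses. The 10 were chosen with earlier results of these data known, so their shares called only describe these data. Between -4 wkpp and MNEB at 1 wkpp, 3 of the 9 were called, PCK1, GPD1 and AQP7, all higher at -4 wkpp, against 1.79% of the 10434 genes tested (187 genes, 104 higher and 83 lower at -4 wkpp). The median log2 fold change of all genes was 0.05. Between -4 wkpp and SNEB at 1 wkpp none of the 9 was called by limma-voom, against 0.0378% of 10578 genes (4 genes). Of the 9, 6 had an unadjusted p below 0.05 on exons there, as had 1561 of all genes. With limma-trend on log2(normalized reads + 1), GPD1 and PCK1 were called in SNEB, among 23 of all genes, and with a pseudocount of 10 only PCK1, among 9. GPD1 and PCK1 were also called when all 15 libraries shared one fit, among 25 of all genes. Without library b of SNEB at 1 wkpp, 4 were called (AQP7, GPD1, PCK1, PCK2), among 98 of all genes. Leaving out any other library, or using total reads as library size, gave 0 calls among all genes. No member was called without the filter on low reads or on entire genes alone.

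**Figure D3:**
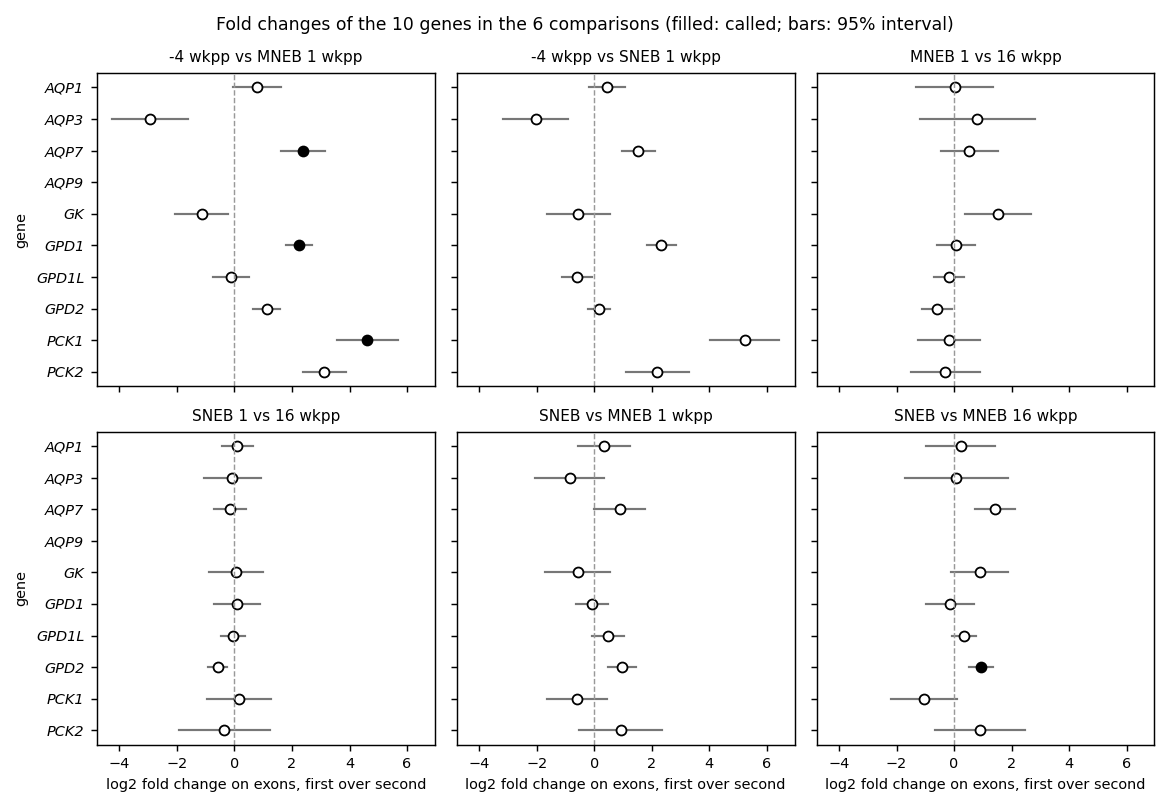
Log2 fold change on exons (x axis, first group over second) of the genes (y axis) in the 6 comparisons, with 95% intervals. Filled circles are genes called in both analyses: AQP7, GPD1 and PCK1 between -4 wkpp and MNEB at 1 wkpp, and GPD2 between SNEB and MNEB at 16 wkpp. AQP9 was below the filter and has no value.

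From 1 to 16 wkpp no member was called in MNEB or in SNEB by limma-voom, against 0% of 9823 genes tested in MNEB and 0% of 10529 in SNEB. An unadjusted p below 0.05 on exons was found for 2 of the 9 in MNEB (GK, GPD2) and 1 in SNEB (GPD2), and for 1337 and 772 of all genes. limma-trend called none either. The 95% interval of the log2 fold change of 1 over 16 wkpp was -0.94 to 1.27 for PCK1 in SNEB and -1.26 to 0.90 in MNEB, and -0.72 to 0.88 and -0.59 to 0.72 for GPD1. These intervals are all closer to 0 than the log2 fold changes of the same genes between -4 and 1 wkpp. For GPD2 the log2 fold change of 1 over 16 wkpp was -0.59 ± 0.15 in SNEB and -0.61 ± 0.23 in MNEB.

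Whether the later weeks differed in their step between the NEB groups was tested in a fit of 12 libraries, as the log2 fold change of 1 over 16 wkpp in SNEB minus that in MNEB. None of the 9 members was called, against 0% of 10661 genes tested (limma-voom interaction). None of the 9 had an unadjusted p below 0.05 on exons, against 534 of all genes. The interval was widest for AQP3 and PCK2 (-3.19 to 1.31 and -2.35 to 2.31 on the log2 scale) and for GPD2 it was -0.54 to 0.60. GK had the largest difference, -1.47 ± 0.73 on exons and -1.40 ± 0.45 on entire genes. The unadjusted p of GK was 0.065 on exons and 0.0096 on entire genes, and its adjusted p 0.99 in both (limma-voom).

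Between SNEB and MNEB at 1 wkpp no member was called, against 0% of 10288 genes (limma-voom). GPD2 alone of the 9 had an unadjusted p below 0.05 on exons, as had 3426 of all genes, and limma-trend called no gene. Of all genes, limma-voom called 254 on exons alone, 154 at an adjusted p below 0.05 and 342 with all 15 libraries in one fit. No member was among them. At 16 wkpp 1 of the 9 was called, GPD2, against 3.78% of 10280 genes (389 genes, 113 higher and 276 lower in SNEB). PCK1, with 70.3 ± 38.2 normalized exonic reads in SNEB and 126 ± 76.5 in MNEB at 16 wkpp (SD, n = 3), had a log2 fold change of -1.05 ± 0.51. That of PCK2 was 0.89 ± 0.69, and that of GPD1 -0.15 ± 0.37. None of these passed (limma-voom, adjusted p = 0.16, 0.37 and 0.79 on exons). Without library a of MNEB at 16 wkpp the log2 fold change of PCK1 was -0.35, and that of PCK2 was 1.70. Without library c of SNEB at 16 wkpp that of PCK2 was 0.29.

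The calls changed when 1 library was left out, for all genes as well as for the members. For -4 wkpp against MNEB at 1 wkpp, GPD1 was still called without library a of MNEB. Leaving out any other of the 6 libraries left 0 members called. Of all genes, 198 were called without library a of MNEB, 3 without library b of MNEB and 0 without any other, in place of 187. GPD2 at 16 wkpp was no longer called whichever of the 6 libraries was left out. Of all genes, 36 to 152 were then called at 16 wkpp, in place of 389. With total reads as library size, GPD1 and PCK2 were called between -4 wkpp and MNEB at 1 wkpp, and PCK1 and AQP7 were not, while 245 of all genes were called in place of 187. The log2 fold changes of the 4 called results kept their direction: without 1 library PCK1 lay between 4.29 and 5.08, AQP7 between 1.88 and 2.64, GPD1 between 2.15 and 2.33, and GPD2 at 16 wkpp between 0.78 and 1.04.

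**Figure D4:**
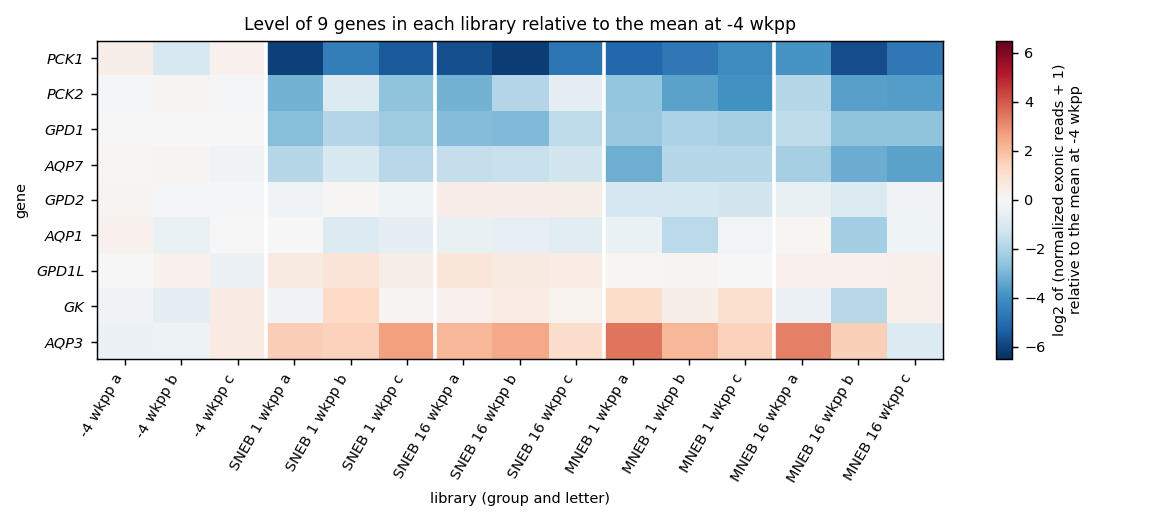
Level of 9 genes (y axis) in each of the 15 libraries (x axis), as log2 of (normalized exonic reads + 1) minus that of the mean at -4 wkpp, with blue lower and red higher. PCK1 lies between -6.12 and -3.84 in the 12 later libraries, GPD1L between 0.03 and 0.81, and AQP3 between -0.91 and 3.49.

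Pathways before and after these steps were followed in lists. The lists were chosen with earlier results of these data known, so their shares called only describe these data. Of 13 genes that supply precursors (carboxylation of pyruvate, malate and aspartate shuttles, lactate and triose steps), 2 were called, against 1.79% of all genes, both higher at -4 wkpp than in MNEB at 1 wkpp: the citrate carrier SLC25A1 (log2 fold change 2.39 ± 0.25) and lactate dehydrogenase LDHB (2.24 ± 0.22). The median of the 13 was 1.01, and that of all genes 0.05. Against SNEB at 1 wkpp none of the 13 was called, against 0.0378% of all genes, with a median of 0.45. There SLC25A1 and LDHB had log2 fold changes of 2.33 ± 0.21 and 1.35 ± 0.23. Their adjusted p was 0.003 and 0.026 on exons, and 0.014 and 0.044 on entire genes (limma-voom). Pyruvate carboxylase PC, which makes the substrate of PEPCK, was the 1 gene of the 13 called at 16 wkpp, lower in SNEB than in MNEB (log2 fold change -1.68 ± 0.30), against 3.78% of all genes called there.

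Of the genes that use glycerol 3-phosphate to build triacylglycerol, 9 were tested and 4 were called between -4 wkpp and MNEB at 1 wkpp, against 1.79% of all genes. The acyltransferases DGAT2 (log2 fold change 5.87 ± 0.23), GPAM (4.32 ± 0.34) and AGPAT2 (3.63 ± 0.24) were higher at -4 wkpp, and DGAT1, named here after its value was seen, was lower (-1.60 ± 0.21). The median of the 9 was 0.02. Against SNEB at 1 wkpp GPAM, which adds the first acyl chain to glycerol 3-phosphate, was called (4.48 ± 0.40), against 0.0378% of all genes. DGAT2, with a log2 fold change of 4.77 ± 0.63, was not (adjusted p = 0.0086 on exons and 0.017 on entire genes, limma-voom). AGPAT2 (2.39 ± 0.28, adjusted p = 0.0056 and 0.028, limma-voom) and DGAT1 (-0.34 ± 0.25) were not called either.

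The list for glycerol release held 6 genes, the lipases PNPLA2, LIPE and MGLL, the PNPLA2 activator ABHD5, the PNPLA2 inhibitor G0S2 and the droplet coat protein PLIN1, which restrains basal lipolysis. None was called in any of the 6 comparisons. For the lipases alone, the log2 fold change of -4 wkpp over MNEB at 1 wkpp was -0.52 for PNPLA2, -0.93 for LIPE and -0.41 for MGLL, and over SNEB -0.08, -0.98 and -0.45. The median log2 fold change of the whole list, lipases and inhibitors together, was 0.04 between -4 wkpp and MNEB at 1 wkpp and -0.30 between -4 wkpp and SNEB. Of the transcription factors known to act on PCK1 or AQP7, 8 were tested, and only NR2F2 was called in any comparison, lower in SNEB than in MNEB at 16 wkpp (-1.42 ± 0.18), where 3.78% of all genes were called and 2.68% were lower in SNEB. At most 1 of the 6 other aquaporins in the table and 1 of the 2 relatives of GK passed the filter in both analyses in any comparison, and neither was called.

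The genes most like each member were sought among the 8010 other genes with a mean of at least 100 normalized exonic reads, by Pearson's r of log2 levels over the 15 libraries. These libraries share their group structure and differ in gene reads, so r describes these data only. PCK1 was most like ACACA (r = 0.981), which encodes acetyl-CoA carboxylase, the first step of fatty acid synthesis, then GPD1 (0.967) and SFXN2 (0.952). GPD1 was most like ACSS2 (0.972), the enzyme that activates acetate, then PCK1 and GPAM (0.966). PCK2 was most like LPL (0.948), which encodes lipoprotein lipase, then LGALS3BP (0.933) and TF (0.92).

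Among the genes most like AQP7 were ACSM1 (0.949) and NIPSNAP1 (0.931). GPD2 was most like the complement gene C2 (0.942), PLBD1 (0.941) and THY1 (0.938), and no other member was among its 3. GPD1L was most like EIF4EBP1 (0.879), KLF10 (0.871) and EFTUD2 (0.865), and AQP1 like TOMM40L (0.88), LMAN1 (0.835) and STEAP3 (0.812). Among the members, r was 0.97 for PCK1 with GPD1, 0.72 for PCK1 with PCK2 and 0.70 for PCK1 with AQP7. Over the 12 libraries after calving alone, r was 0.80, 0.13 and -0.01 for the same pairs, and 0.87 for GPD1L with GPD2.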

How the data were processed

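Libraries (TruSeq Stranded Total RNA, single reads) were demultiplexed by the authors with bcl2fastq 2.15.0, cleaned of adapters with Cutadapt 1.3, aligned with TopHat2 to bosTau8 and counted with htseq-count, on exons and separately on entire genes. The 6 deposited tables hold, per gene, the mean over 6 libraries of counts that the authors divided by size factors, which is neither a count nor a CPM value. Their fold changes, p-values and scores of the authors' DESeq2 comparison were not used. The tables held 0 columns of samples from elsewhere.

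The value of 1 read of each library was found from genes with few reads, and the whole reads behind the 15-digit means by lattice reduction (Python 3.11.15, sympy 1.14.0). Reads were accepted for 13886 genes on exons and 13884 on entire genes, with a relative residual of at most 5e-15. For 98.791% and 95.466% of genes, the 10 members among them, only 1 solution was possible. All 81 spike-ins resolved in both analyses had the same reads in all 15 libraries in both. Very abundant genes (10 on exons, 12 on entire genes) stayed unresolved and were left out, as were spike-ins. Exonic and whole gene libraries were matched by the number of genes with equal reads (at least 830 per group, next best at most 407). The recovery and the tests were tested on simulated data.

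Reads were normalized by median-of-ratios size factors and tested with limma-voom (limma 3.58.1, R 4.3.3) on the libraries of each comparison, for genes with at least 10 reads in at least 3 libraries. A gene was called at a Benjamini-Hochberg adjusted p below 0.01 on exons and on entire genes, the study's threshold for genes common to its 2 analyses. The condition that both have one sign was added here. Fold changes are the first group over the second. Errors are SE of log2 fold changes or SD over 3 libraries. Named genes were the 10 members, up to 3 called genes of largest change per list, and the 3 genes most like each member with a mean of at least 100 reads, of which 1 is not reported here. Members and lists were chosen with earlier results of these data known. Alternatives were each analysis alone, adjusted p below 0.05, no filter, total reads as library size, limma-trend with pseudocounts of 1 or 10, all 15 libraries in one fit, and leaving out each library. The RefSeq table at hand belongs to another assembly, so no coordinates are given.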

Additional observations from a re-analysis of the deposited data

Results flagged for a closer look

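Spike-in reads, which no comparison of the report uses, were more frequent in MNEB than in every other library. The lowest MNEB library had 1.28 spike-in reads per 100 exonic gene reads at 1 wkpp and 1.19 at 16 wkpp, while the 9 libraries at -4 wkpp and in SNEB reached at most 0.666. The amount of spike-in added per library is not given in the sources used here, and its part in the contrasts with MNEB was not tested.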

How the results depend on the processing

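No paired analysis was possible because, although the weeks can share cows, the deposited columns carry no replicate number or cow, and the libraries within a group stay without a name. The calls depended on the settings more than the fold changes did, and the causes were not tested. Between -4 wkpp and MNEB at 1 wkpp, 3 members were called. Alternatives gave 6 on exons alone, 5 at an adjusted p below 0.05, 1 without the filter on low reads and 2 with total reads as library size. Both limma-trend settings and the fit of all 15 libraries gave 4 each, and leaving out a library gave 0 to 1. Between -4 wkpp and SNEB at 1 wkpp, 0 were called, against 2 on exons alone, 2 at an adjusted p below 0.05, 2 and 1 with limma-trend and pseudocounts of 1 and 10, 2 with all 15 libraries in one fit, and 0 to 4 when a library was left out. Between SNEB and MNEB at 16 wkpp, 1 was called, against 2 at an adjusted p below 0.05, 0 without the filter, and 0 to 0 when a library was left out. In the other comparisons and the interaction 0 members were called under every alternative run. Of all genes, leaving out a library gave 0 to 198 calls in place of 187 between -4 wkpp and MNEB at 1 wkpp, 0 to 98 in place of 4 for SNEB, 0 to 357 in place of 0 for SNEB against MNEB at 1 wkpp, and 36 to 152 in place of 389 at 16 wkpp. The other alternatives gave 66 to 1737, 0 to 87, 0 to 342 and 271 to 1367 calls in the same comparisons.

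Of 63 log2 fold changes of members, 27 changed sign under some alternative, and 0 of the 4 called ones did. On entire genes the log2 fold change of 1 over 16 wkpp in MNEB was -0.08 for AQP1, -0.08 for GPD1 and 0.45 for GPD1L, and in SNEB -0.22 for GK. On entire genes SNEB over MNEB was -0.07 for GPD1L at 1 wkpp, and -0.2 for both AQP1 and AQP3 at 16 wkpp, and the interaction was -0.53 for GPD1L, -0.31 for GPD2 and 0.14 for PCK2. With limma-trend and pseudocounts of 1 and 10, 1 over 16 wkpp in MNEB was 0 and -0.01 for AQP1, and 0.12 and 0.09 for PCK1. When a library was left out, 1 over 16 wkpp in MNEB ranged from -0.71 to 0.52 for AQP1, -0.01 to 2.32 for AQP3, -0.11 to 0.37 for GPD1, -0.59 to 0.47 for PCK1 and -0.83 to 0.37 for PCK2. In SNEB it ranged from -0.16 to 0.3 for AQP1, -0.44 to 0.18 for AQP3, -0.41 to 0.4 for GK, -0.14 to 0.49 for GPD1, -0.16 to 0.06 for GPD1L, -0.28 to 0.55 for PCK1 and -1.02 to 0.29 for PCK2. SNEB over MNEB at 1 wkpp ranged from -0.14 to 0.61 for AQP1, -1.22 to 0.03 for AQP3 and -0.29 to 0.13 for GPD1, and at 16 wkpp from -0.48 to 0.68, -0.79 to 1.56 and -0.56 to 0.18 for the same genes. The interaction ranged from -0.39 to 0.83 for AQP1, -0.27 to 0.47 for GPD1, -0.09 to 0.18 for GPD2, -0.25 to 0.84 for PCK1 and -0.8 to 0.62 for PCK2, and -4 wkpp over MNEB at 1 wkpp from -0.3 to 0.04 for GPD1L. With 1 library left out a group has 2, and on exons depth limits AQP9, GK and AQP3 most.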
